A study of Mus musculus with 6 samples.

Results

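Spinal cord A and NMPs C are named clusters in the authors' cell annotation of mouse stembryos, also called gastruloids. These are balls of embryonic stem cells which, once exposed briefly to an activator of Wnt signalling, grow out along an axis and make trunk-like tissues. Both clusters were compared at 120 h after aggregation by single-cell RNA-seq, within each of 3 libraries of wild-type stembryos. Replicates 1 and 2 of whole stembryos and the posterior part of a further, dissected pool gave these libraries, and every library was prepared from pooled, dissociated stembryos. Spinal cord A held 241, 311 and 2897 cells in whole replicate 1, whole replicate 2 and the posterior part. NMPs C held 1581, 651 and 1251 cells in the same order, and this order of the libraries is kept throughout. Together these were 6932 of the 15437 cells of the 3 libraries and of the 26968 cells of the series, whose other libraries were whole stembryos at 96 h and the anterior part at 120 h. The stembryos were made from unmodified mouse embryonic stem cells, and the study's methods state that those without an elongated shape at collection were discarded. The labels do not say whether the whole replicates came from separate cultures, so each p-value measures the spread between libraries. Hox and Cdx genes were part of the fit, and their differences between the clusters are not described.

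The caudal end of the vertebrate embryo grows from neuromesodermal progenitors, or NMPs, which supply both the spinal cord and the somitic mesoderm and are known by the joint presence of the transcription factors Sox2 and T (Brachyury). Wnt and FGF signals keep these cells in the progenitor state. Cells that enter the neural path lose T, and retinoic acid from the somites promotes their maturation towards patterned neural tube.

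The authors built the clusters from the same counts, so no test below is independent evidence that the clusters differ. A p-value says only whether a difference was large against its spread over the 3 libraries. The 10 genes with the highest ratio of their level in Spinal cord A to that in all other cells of these libraries were Nkx1-2, Pla2g7, Epha5, Steap1, Dcxr, Pkp2, Mbp, Mkrn1, Cdx2 and Cystm1. They included 1 marker of the tail bud list, Nkx1-2, a homeobox gene of the caudal epiblast and preneural tube, and 0 markers of the spinal cord list. Among the 10 leading genes of NMPs C, Cyp26a1 and Fgf17 were tail bud markers. Some markers of patterned spinal cord had few UMIs in Spinal cord A, with 13 of Nkx6-1, 2 of Olig2, 14 of Neurog2 and 25 of Dbx2 over 3449 cells. NMPs C had 16, 2, 22 and 10 UMIs of these genes over 3483 cells. In the posterior part, where Spinal cord A had the larger total, Dbx2 had 24 UMIs in Spinal cord A and 1 in NMPs C, and Nkx6-1 had 11 in each. The other untested members of the spinal cord list had more UMIs there in Spinal cord A than in NMPs C. These were Dbx1 with 18 against 1, Nkx6-2 with 12 against 1 and Olig2 with 2 against 0. Other genes of the spinal cord list were more abundant, and of 15 tested 5 were higher and 2 lower in Spinal cord A. Without the posterior library 1 was higher and 4 were lower. Most leading genes of Spinal cord A were in neither marker list, so they neither bear out nor go against the word "spinal cord". Members of the spinal cord list went both ways. The cluster name is used here as a name only.

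Counts of unique molecular identifiers (UMIs), which mark single captured transcripts, were summed per cluster in each library. The sums held 3308438, 2620560 and 43321034 UMIs in Spinal cord A and 28541172, 7323127 and 18487785 UMIs in NMPs C. Cells of Spinal cord A had a median of 14184, 8763 and 13867 UMIs, against 17619, 10987 and 13999 UMIs in NMPs C. Levels are given as CPM, UMI counts scaled to the total of each sum with TMM factors, and differences as log2 of Spinal cord A over NMPs C ± SE from edgeR's quasi-likelihood test, in which the library was a block. Of all cells, Spinal cord A took 4.95, 11.6 and 36.7% in the 3 libraries and NMPs C took 32.5, 24.3 and 15.9%. The barcodes shared by any pair of the 3 libraries numbered 2 to 6.

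Of 13449 genes tested, 701 or 5.21% passed an adjusted p of 0.05, with 323 (2.40%) higher and 378 (2.81%) lower in Spinal cord A. Without Hox and Cdx genes there were 690, of which 646 differed in the same direction in all 3 libraries. Large differences were mostly decreases: 122 of these genes were at least 2-fold lower and 22 at least 2-fold higher in Spinal cord A. With no library block 0 genes passed and 311 had an unadjusted p under 0.05. Leaving out the posterior library gave 934 higher and 533 lower genes, and leaving out whole replicate 1 or 2 gave 176 or 197 higher genes. Fits with a library left out have fewer residual degrees of freedom. A call gained or lost in them, here and below, is not directly comparable with the main fit. With no TMM factors 15.2% of the called genes were higher, against 46.1% with them.

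**Figure D1:**
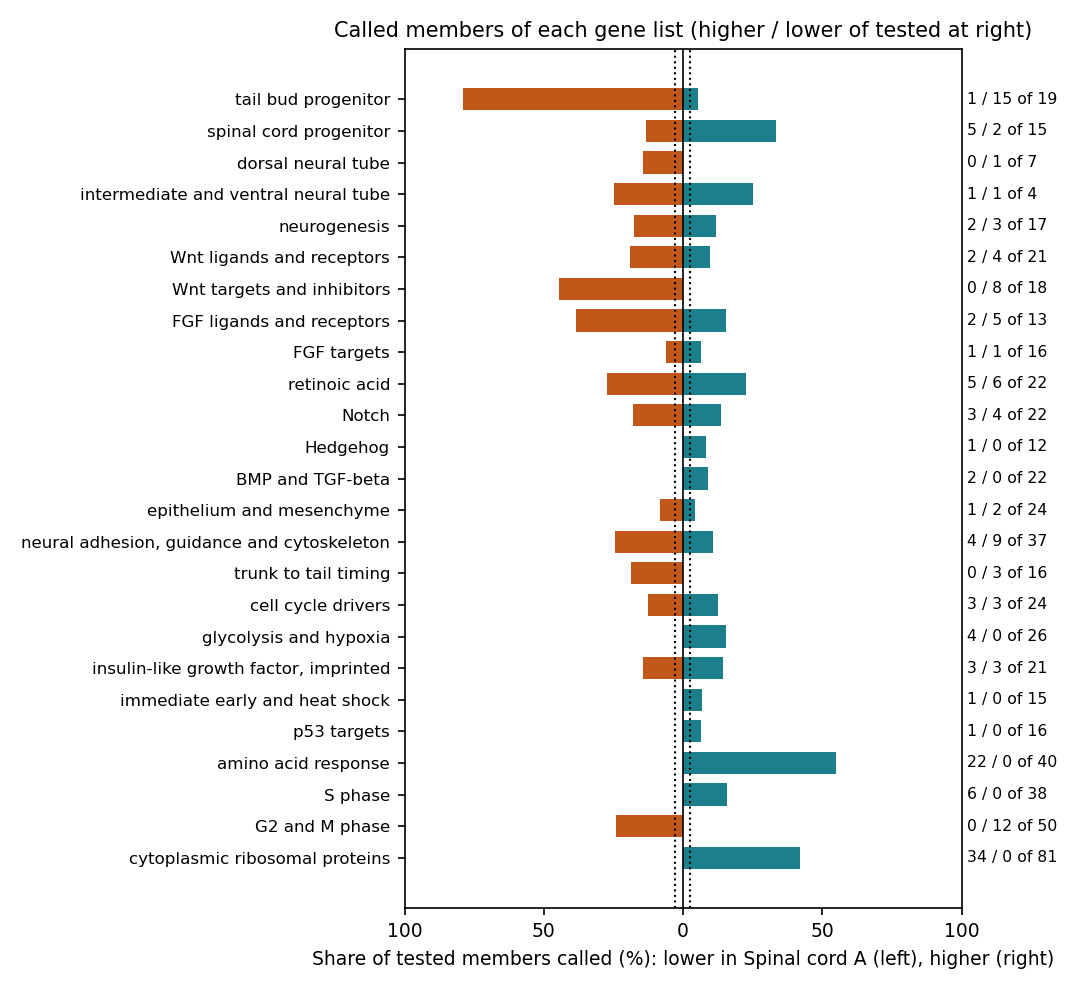
Share of the tested members of each gene list that were called lower (bars to the left) or higher (bars to the right) in Spinal cord A than in NMPs C, in percent, with the counts at the right. Dotted lines mark the shares over all genes tested, 2.81% lower and 2.40% higher. The tail bud list had 15 of 19 members lower, and the amino acid response list had 22 of 40 higher. Leading genes of either cluster are counted.

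The tail bud programme was lower in Spinal cord A. Of 20 listed tail bud genes 19 were tested, 15 were lower and 1 was higher, and the median log2 difference was -0.95, against 0.0018 over all genes tested other than Hox and Cdx. The 15 included Cyp26a1 and Fgf17, leading genes of NMPs C that were ranked by their level there in these same data. The count lower was 15, 15 and 13 when whole replicate 1, whole replicate 2 and the posterior library were left out in turn. T, the T-box factor that defines the primitive streak, NMPs and early mesoderm, had 18.3, 27.2 and 35.5 CPM in Spinal cord A, against 73.0, 62.6 and 137 CPM in NMPs C. The groups did not overlap, and the log2 difference was -1.81 ± 0.10 (adjusted p = 1.1e-09). The exception was Fst, which encodes the activin antagonist follistatin. It had 8.65, 2.64 and 1.00 CPM in Spinal cord A, against 1.77, 1.76 and 0.498 CPM in NMPs C (log2 1.59 ± 0.35, adjusted p = 0.010), and without whole replicate 1 the difference was 0.83 (adjusted p = 0.45).

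Tbx6, which directs NMP descendants to presomitic mesoderm, had 4.80, 3.02 and 3.39 CPM in Spinal cord A, against 12.0, 4.65 and 25.1 CPM in NMPs C. Spinal cord A was low in every library, while NMPs C varied widely, and the log2 difference was -2.46 ± 0.25 (adjusted p = 2.2e-06). Without the posterior library the difference of Tbx6 was -1.11 (adjusted p = 0.0033). In DESeq2 without independent filtering it was -1.66 and did not pass (adjusted p = 0.21). Mixl1, a homeobox gene of the primitive streak, had 1, 0 and 6 UMIs in Spinal cord A, against 41, 8 and 53 UMIs in NMPs C (log2 -4.08 ± 0.49 after scaling for depth). Sp5, a zinc finger factor induced by Wnt signalling, had 20.5, 18.9 and 35.2 CPM in Spinal cord A, against 47.2, 33.2 and 114 CPM in NMPs C (log2 -1.46 ± 0.11). Ets2, an Ets family factor, was lower by a similar margin (-1.90 ± 0.16). Snai1, a driver of epithelial to mesenchymal transition, was lower over all libraries (-1.13 ± 0.30, adjusted p = 0.034), but the difference without the posterior library was -0.10 (adjusted p = 0.93).

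**Figure D2:**
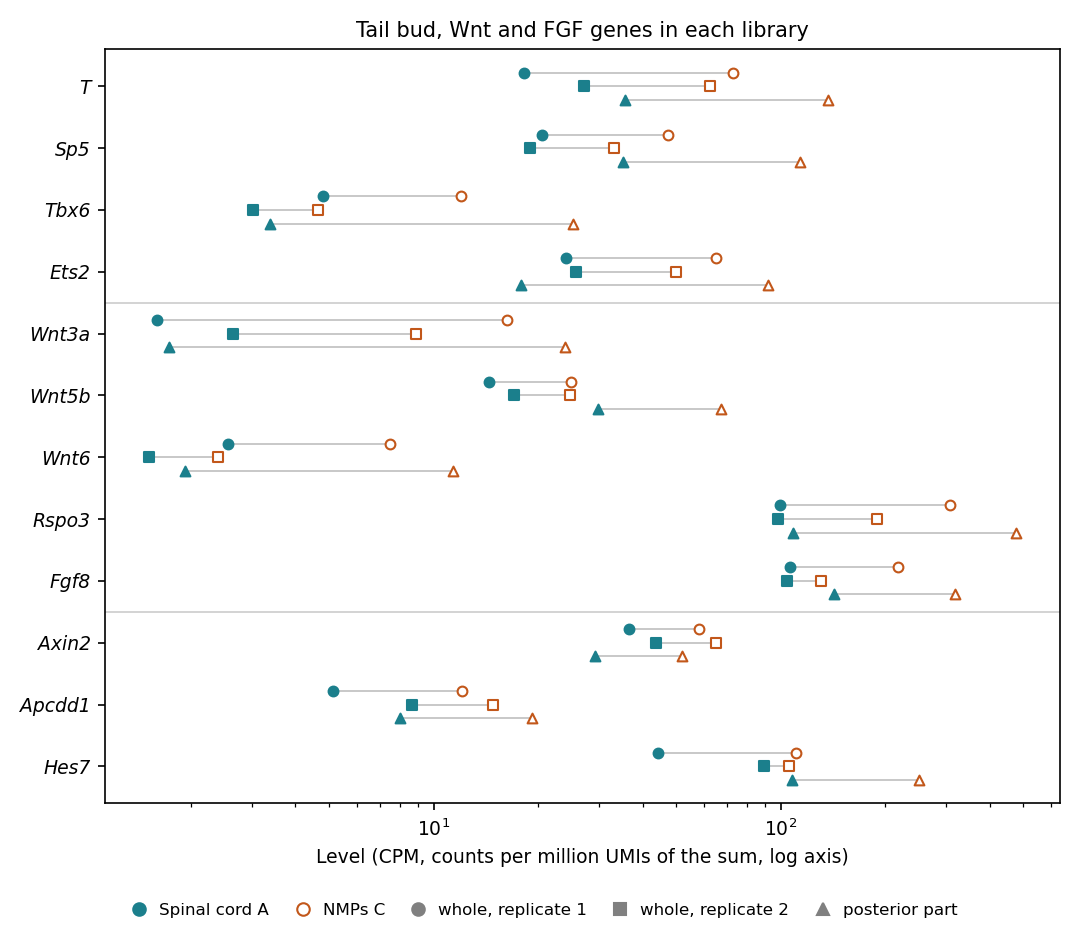
Level of tail bud, Wnt and FGF genes in CPM (log axis) in Spinal cord A (filled) and NMPs C (open), with 1 symbol per library and a line joining the clusters of that library. In every library and for every gene shown the Spinal cord A symbol lies to the left, and the gap is widest in the posterior part for Tbx6 and for Wnt3a.

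Wnt ligands showed some of the steepest differences. Wnt3a, which sustains NMPs, had 1.60, 2.64 and 1.73 CPM in Spinal cord A, against 16.3, 8.92 and 24.0 CPM in NMPs C, a log2 difference of -3.56 ± 0.22 (adjusted p = 2.3e-09). Of 21 tested Wnt ligands and receptors 4 were lower, namely Wnt3a, Wnt6 (-2.28 ± 0.24), the Wnt-potentiating ligand Rspo3 (-1.69 ± 0.13) and Wnt5b (-1.01 ± 0.11). The receptors Fzd9 and Lgr4 were higher, and the median over the list was -0.02. In Spinal cord A Wnt3a rested on 5, 7 and 71 UMIs and Wnt6 on 8, 4 and 79 UMIs. Rspo3 was abundant, with 99.3, 97.9 and 108 CPM in Spinal cord A, against 307, 190 and 477 CPM in NMPs C. In the list of Wnt targets and inhibitors 8 of 18 members were lower and 0 higher, with a median of -0.43. They were the transcriptional targets Sp5, Tcf7 and Lef1 and the negative regulators Dkk1, Apcdd1, Notum, Axin2 and Nkd1. Notum was also a leading gene of NMPs C. Axin2, a feedback inhibitor widely used as a readout of Wnt signalling, had 36.5, 43.8 and 29.1 CPM in Spinal cord A, against 58.0, 65.0 and 52.1 CPM in NMPs C (log2 -0.73 ± 0.08). Dkk1, a secreted inhibitor, had 1, 1 and 20 UMIs in Spinal cord A, against 79, 9 and 80 UMIs in NMPs C (log2 -3.08 ± 0.35).

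The windows before the start of these genes were searched for the TCF and LEF motif, spelled CTTTGAA or CTTTGAT, on both strands, because TCF and LEF proteins carry Wnt signals to DNA. It occurred in the 250 bases before a start of 8.63% of 27025 mouse genes of RefSeq (GRCm38.p6), and of 3 (Sp5, Dkk1 and T) of the 7 Wnt-related genes searched that had an entry, all picked with their values known. The stretches are shown 5′ to 3′ on the strand of the gene, with the match in capitals. They lie at chr2:70474794-70474850 on the plus strand for Sp5, chr19:30549582-30549638 on the minus strand for Dkk1 and chr17:8434173-8434219 on the plus strand for T, whose match is on the opposite strand.
Sp5: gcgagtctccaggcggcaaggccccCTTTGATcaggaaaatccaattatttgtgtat
Dkk1: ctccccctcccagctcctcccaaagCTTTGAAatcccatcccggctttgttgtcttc
T: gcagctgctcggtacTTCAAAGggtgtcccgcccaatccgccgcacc
A match describes the letters of the window and does not show a bound site.

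FGF ligands, the second signal of the tail bud, were lower too. Of 13 tested ligands and receptors 5 were lower, and all of these were ligands, while Fgfr2 and Fgfbp3, a receptor and a carrier protein of FGFs, were higher. Fgf4 had 0, 0 and 6 UMIs in Spinal cord A, against 91, 9 and 167 UMIs in NMPs C (log2 -5.96 ± 0.39). Fgf3 had 3, 0 and 87 UMIs in Spinal cord A, against 207, 26 and 484 UMIs in NMPs C (log2 -3.63 ± 0.21). In the whole libraries both were thus at or near 0 UMIs in Spinal cord A. Fgf8, the best-known FGF of the caudal embryo, remained abundant, with 106, 104 and 142 CPM in Spinal cord A, against 217, 131 and 318 CPM in NMPs C (log2 -0.91 ± 0.10, adjusted p = 7.1e-06). Fgf15 was lower as well (-1.41 ± 0.24). Fgf17, a leading gene of NMPs C, is given with no p-value but is counted among the 5. It had 41.3, 48.0 and 73.6 CPM in Spinal cord A, against 110, 67.9 and 204 CPM in NMPs C. The FGF target list had few calls, with 1 of 16 members lower (Spry4) and 1 higher (Dusp14, 0.75 ± 0.15), and a median of -0.17. Without the posterior library neither gene passed, at -0.30 for Spry4 (adjusted p = 0.49) and 0.59 for Dusp14 (adjusted p = 0.067). In that fit 4 members of the list were lower and 0 higher, with a median of -0.15, and with no TMM factors 4 were lower and 1 higher. Dusp6, a phosphatase induced by FGF signalling, had 42.9, 56.7 and 53.3 CPM in Spinal cord A, against 49.7, 61.1 and 62.5 CPM in NMPs C (log2 -0.20 ± 0.08, adjusted p = 0.15).

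The share of cells with both Sox2 and T was then examined, after thinning every cell to 5000 UMIs so that depth was equal. Both were found in 2.91, 7.26 and 8.15% of Spinal cord A cells, against 11.6, 14.2 and 19.98% of NMPs C cells, and the exact 95% intervals of the clusters did not overlap in any library. These intervals cover counting error only. T was found in 6.22, 11.7 and 15.0% of Spinal cord A cells, against 28.2, 26.5 and 44.4% of NMPs C cells, which is the same order. Sox2 was found in 47.3, 64.1 and 59.7% of Spinal cord A cells, against 50.3, 62.2 and 44.9% of NMPs C cells, so that only the posterior part showed a gap beyond the intervals. In somite cells of the same libraries, which should lack both, 0, 0.145 and 0% held both genes, from 1691, 688 and 69 cells, where a count of 0 allows up to 0.177% in whole replicate 1 and 4.35% in the posterior part by 3 counts, and up to 0.218 and 5.21% by the exact 95% interval. In whole replicate 2, 63 Spinal cord A and 24 NMPs C cells had under 5000 UMIs and were left out. Without thinning the shares with both genes were 13.7, 13.8 and 30.8% in Spinal cord A and 39.7, 32.9 and 56.8% in NMPs C. Nkx1-2 had similar shares in both clusters, with 27.8, 37.5 and 43.8% in Spinal cord A and 34.4, 40.8 and 43.2% in NMPs C, and its log2 difference was -0.04 ± 0.08.

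**Figure D3:**
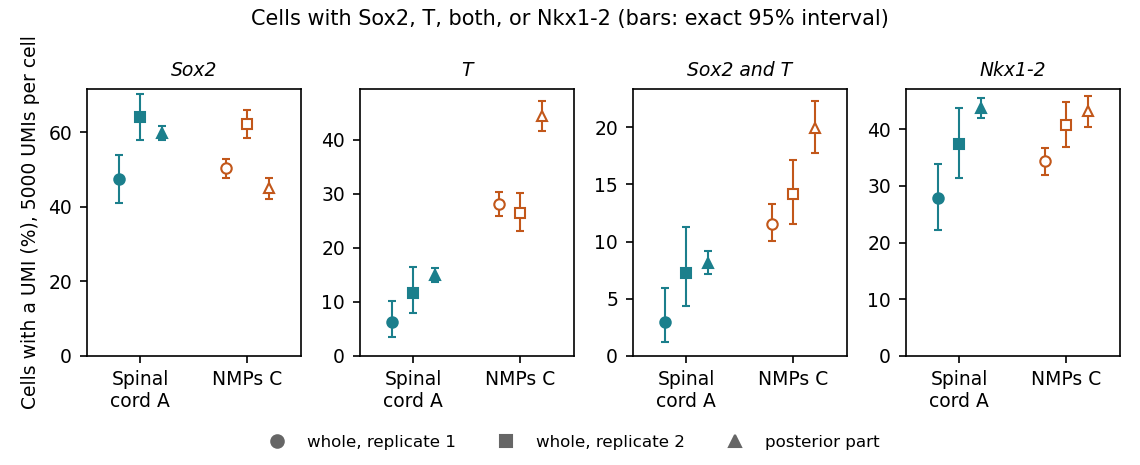
Share of cells, in percent, with at least 1 UMI of Sox2, of T, of both or of Nkx1-2 after thinning to 5000 UMIs, for Spinal cord A (filled) and NMPs C (open) in each library, with exact 95% binomial intervals. For T and for both genes together all 3 Spinal cord A values lie below all 3 NMPs C values, whereas Sox2 separates in the posterior part.

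Retinoic acid genes were split. Of 22 tested members 5 were higher (Rarb, Meis1, Meis2, Nr2f2 and Crabp2) and 6 lower (among them Cyp26a1, Dhrs3, Stra6 and Rarg), with a median of 0.08. The receptor gene Rarb and the homeobox genes Meis1 and Meis2 are induced by retinoic acid, and Cyp26a1 encodes the enzyme that degrades it in the tail bud. Cyp26a1 led NMPs C and is given with no p-value, though it is counted among the 6. It had 8.65, 15.9 and 22.4 CPM in Spinal cord A, against 33.2, 37.7 and 89.1 CPM in NMPs C. Rarb rested on few molecules, with 6, 6 and 39 UMIs in Spinal cord A, against 29, 6 and 4 UMIs in NMPs C. As CPM this was 1.92, 2.27 and 0.95 in Spinal cord A, against 0.986, 0.754 and 0.221 in NMPs C, a log2 difference of 1.48 ± 0.41 (adjusted p = 0.040) that lost its call without whole replicate 2 (1.46, adjusted p = 0.10) and without TMM factors (1.39, adjusted p = 0.068). Meis2 had 147, 158 and 113 CPM in Spinal cord A, against 95.04, 142 and 55.5 CPM in NMPs C (log2 0.64 ± 0.10). Meis1 (0.68 ± 0.17) and Nr2f2 (0.60 ± 0.14) lost their calls without the posterior library, at 0.26 (adjusted p = 0.36) and 0.35 (adjusted p = 0.058). Dhrs3, a retinal reductase that limits retinoic acid, was lower (-1.74 ± 0.32), but its difference without the posterior library was -0.27 (adjusted p = 0.76). Aldh1a2, which makes retinoic acid, had 1.60, 2.27 and 0.926 CPM in Spinal cord A, against 2.89, 0.88 and 1.66 CPM in NMPs C, and did not pass (-0.53 ± 0.36, adjusted p = 0.46). Crabp1, a binding protein, did not pass either (0.21 ± 0.09, adjusted p = 0.20).

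Rarb and Cyp26a1 differed in opposite directions, and the windows before both starts hold a retinoic acid response element of the direct repeat type with a spacer of 5 bases, in the forms searched on both strands. This element occurred before a start of 0.104% of the 27025 genes. The stretches lie at chr14:16575488-16575554 on the minus strand for Rarb and chr19:37697751-37697807 on the plus strand for Cyp26a1, whose match is on the opposite strand, and capitals mark the element.
Rarb: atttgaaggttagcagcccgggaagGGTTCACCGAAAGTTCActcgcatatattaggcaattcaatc
Cyp26a1: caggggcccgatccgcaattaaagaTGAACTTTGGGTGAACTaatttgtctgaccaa
These genes were picked for the search with their values known, and other members of the list were not searched.

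Neural progenitor genes were higher in Spinal cord A mainly in the posterior part. Of 20 listed spinal cord progenitor genes 15 were tested, 5 were higher (Irx3, Sox3, Gbx2, Hes5 and Crabp2) and 2 lower (among them Fabp7), with a median of 0.24. Without the posterior library 1 was higher and 4 were lower, with a median of -0.02. Sox2, the factor shared by NMPs and neural progenitors, had 167, 200 and 213 CPM in Spinal cord A, against 153, 202 and 131 CPM in NMPs C. The values overlapped in the whole libraries and separated in the posterior part. The log2 difference over all libraries did not pass (0.31 ± 0.09, adjusted p = 0.059), but this depended on the setting. Sox2 passed without whole replicate 1 (0.38, adjusted p = 0.0020) or 2 (0.45, adjusted p = 0.00345), in G1 cells (0.63), after thinning (0.37) and with no filter on low counts (0.29). Without the posterior library its difference was 0.06 (adjusted p = 0.63). Sox3, a close relative of Sox2, had 47.4, 39.7 and 52.2 CPM in Spinal cord A, against 37.1, 34.2 and 22.9 CPM in NMPs C (0.71 ± 0.13, adjusted p = 0.0023), and without the posterior library the difference was 0.30 (adjusted p = 0.067). Irx3, a homeobox gene of the intermediate neural tube, had 25.9, 37.8 and 35.4 CPM in Spinal cord A, against 19.4, 42.7 and 8.36 CPM in NMPs C (0.91 ± 0.24, adjusted p = 0.033). Without the posterior library it was 0.09 (adjusted p = 0.75). Sox1, which marks committed neural progenitors, had 8.97, 12.5 and 13.3 CPM in Spinal cord A, against 10.2, 16.3 and 8.08 CPM in NMPs C, and did not pass (0.24 ± 0.18).

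The difference between the posterior part and the whole libraries was then fitted as an interaction. This alternative was chosen after the values without the posterior library had shown the pattern, so it gives the sizes and is no independent evidence of them. The posterior part is a single library with no spread of its own and was assumed to vary like the whole ones. On that assumption the term passed for 333 genes or 2.48%. In the spinal cord progenitor list 8 of 15 members had a more positive difference in the posterior part (Gbx2, Irx3, Irx5, Ncam1, Sox1, Sox2, Sox21 and Sox3) and Fabp7 a more negative one. Irx3 differed by 1.99 ± 0.19 on the log2 scale, and the retinoic acid-related Meis1 and Nr2f2 by 1.04 and 0.74. In the presomitic and somitic list 7 of 13 members had a more negative difference in the posterior part, among them Tbx6 (-1.77), and 0 a more positive one. Each of the 3 libraries was a batch of its own and the posterior part was the only dissected one among them, so batch and dissection cannot be told apart, while the chemistry was V3.1 in whole replicate 2 and V3 in the others.

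**Figure D4:**
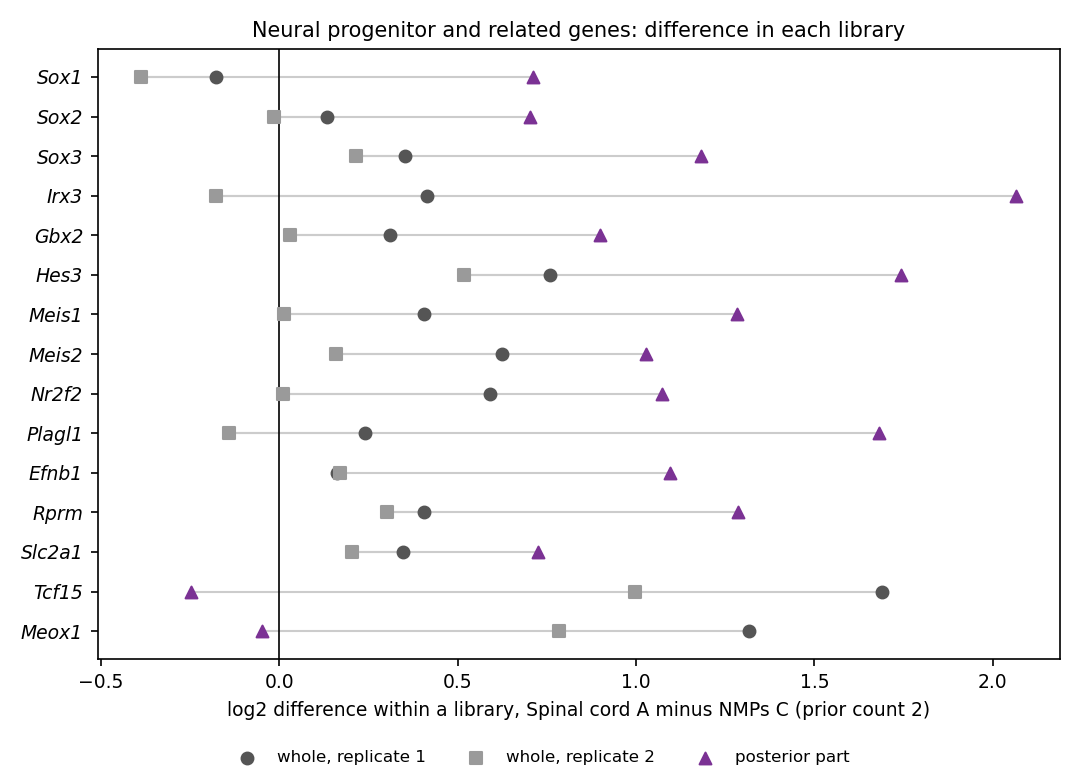
Log2 difference between Spinal cord A and NMPs C within each library for 15 genes, with 1 symbol per library and the line at 0 marking equal levels. The posterior part (triangles) lies farthest to the right for the first 13 genes, and farthest to the left for the somite genes Tcf15 and Meox1; Gbx2, Tcf15 and Meox1 were chosen after their values were seen.

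Fabp7, a fatty acid binding protein of radial glia, went the other way. It had 20.2, 6.80 and 5.99 CPM in Spinal cord A, against 50.5, 12.6 and 25.2 CPM in NMPs C (-1.70 ± 0.15). Pax6 and Pax3, early factors of patterned neural tube, did not pass, with log2 differences of -0.35 ± 0.21 and 0.07 ± 0.14. In the dorsal neural tube list 1 of 7 members was lower, the BMP-responsive Msx1 (-0.71 ± 0.08), and 0 were higher. In the intermediate and ventral list 4 members were tested, Irx3 was higher and Sp8, which the tail bud also expresses, was lower (-0.40 ± 0.08). Shh, the ventral organiser's ligand, had 0 UMIs in both clusters.

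Notch and neurogenesis genes showed no common direction. Hes3, an effector that keeps neural progenitors undifferentiated, had 24.3, 20.4 and 26.8 CPM in Spinal cord A, against 14.3, 14.2 and 7.92 CPM in NMPs C, with no overlap (1.15 ± 0.17, adjusted p = 0.00023). Hes5 and Hes1 were also higher. The ligands Dll1 (-1.10 ± 0.17) and Dll3 (-0.99 ± 0.17), the segmentation clock gene Hes7 (-0.99 ± 0.12) and Nrarp were lower, and Dll3 without the posterior library was -0.30 (adjusted p = 0.26). In all, 3 of 22 Notch genes were higher and 4 lower. Among 17 tested neurogenesis genes 2 were higher and 3 lower, the latter including Mnx1, a leading gene of NMPs C. Tubb3, a neuronal tubulin, had 7.37, 12.1 and 17.9 CPM in Spinal cord A, against 3.60, 5.91 and 7.36 CPM in NMPs C (1.18 ± 0.15), whereas the neuronal RNA-binding protein gene Elavl4 was lower (-0.87 ± 0.14). Neuronal marker Dcx had 0 UMIs in both clusters. Of 37 genes of neural adhesion, guidance and the cytoskeleton 4 were higher and 9 lower. The lower ones included the guidance genes Slit3 (-1.54 ± 0.21), Ephb1 (-1.02 ± 0.26) and Sema3c (-0.85 ± 0.18), whose calls were lost without the posterior library, at -0.84 (adjusted p = 0.13), -0.87 (adjusted p = 0.30) and -0.45 (adjusted p = 0.35). Ncam1 and Cdh2, the main adhesion molecules of the neural tube, did not pass, at 0.15 ± 0.08 and 0.02 ± 0.07.

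Genes of the amino acid response were higher in Spinal cord A. They are induced by the factor Atf4 when amino acids are short or protein folding is strained, and they supply transporters, synthetic enzymes and tRNA synthetases. This list was drawn up after its values were seen. Of 40 tested members 22 were higher and 0 lower, with a median of 0.33. The count higher was 22, 16 and 13 without whole replicate 1, whole replicate 2 and the posterior library, and 11 with no TMM factors. Chac1, which degrades glutathione, had 3.20, 10.2 and 19.3 CPM in Spinal cord A, against 1.19, 2.01 and 3.43 CPM in NMPs C (2.29 ± 0.20, adjusted p = 3.0e-07). Trib3, a pseudokinase that restrains Atf4, had 1.92, 4.53 and 6.80 CPM in Spinal cord A, against 1.05, 1.38 and 1.33 CPM in NMPs C (1.91 ± 0.28). Slc7a3, a transporter of arginine and lysine, had 4.48, 13.2 and 14.0 CPM in Spinal cord A, against 2.35, 6.79 and 4.26 CPM in NMPs C (1.37 ± 0.18). Atf3, a stress-induced transcription factor, rested on 4, 13 and 164 UMIs in Spinal cord A, against 10, 9 and 17 UMIs in NMPs C (2.06 ± 0.30). Every one of these differences was positive in each library. More abundant members moved less: Asns, asparagine synthetase, had 90.9, 172 and 262 CPM in Spinal cord A, against 68.2, 122 and 151 CPM in NMPs C (0.60 ± 0.07), and Atf4 itself differed by 0.27 ± 0.06. Pck2 (0.86 ± 0.13) and Sesn2 (0.72 ± 0.12) were also higher. In the immediate early and heat shock and p53 target lists only Atf3 and Sesn2 were higher, of 15 and 16 tested members, and 0 were lower. Median mitochondrial shares were 2.41, 2.02 and 1.80% in Spinal cord A, against 2.497, 2.05 and 1.88% in NMPs C.

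**Figure D5:**
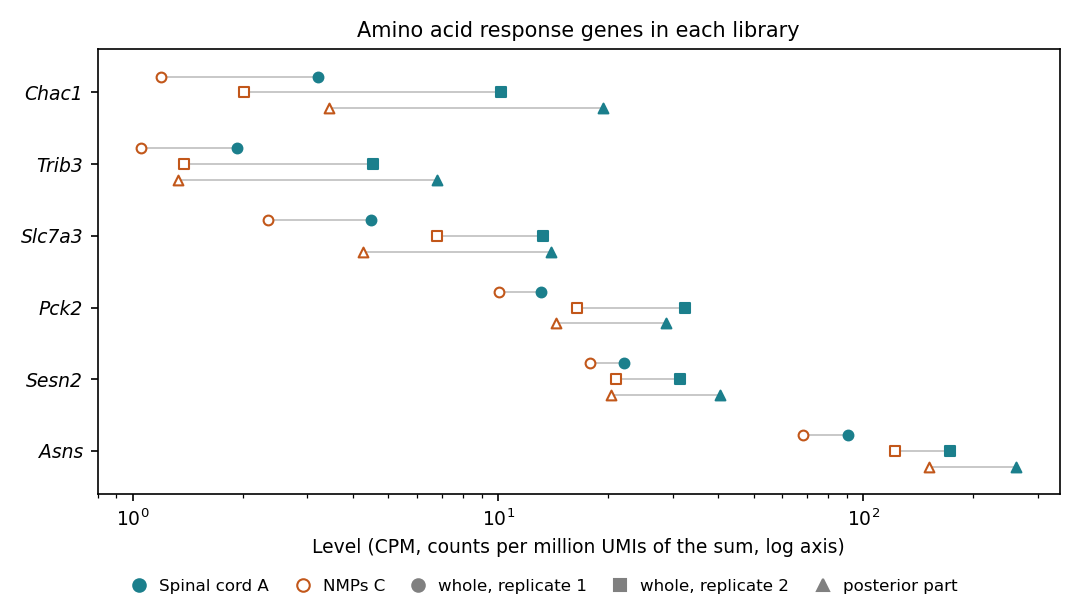
Level of 6 amino acid response genes in CPM (log axis) in Spinal cord A (filled) and NMPs C (open), with 1 symbol per library. In each library the Spinal cord A symbol lies to the right, and whole replicate 1 (circles) has the lowest levels of most genes; Asns was chosen after its values were seen.

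The motif TGATGNAA, the core of the element through which Atf4 acts, was searched on both strands of the 250 bases before the start. It occurred before a start of 3.91% of 27025 genes, and of 4 (Asns, Atf3, Chac1 and Pck2) of 12 amino acid response genes with an entry, which were picked for the search with their values known. The stretches of Chac1 (chr2:119351024-119351081, plus strand), Asns (chr6:7693210-7693257, minus strand) and Atf3 (chr1:191183411-191183468, minus strand) are shown with the match in capitals, which is on the opposite strand in Chac1 and Atf3.
Chac1: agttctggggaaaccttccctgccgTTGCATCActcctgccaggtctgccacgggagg
Asns: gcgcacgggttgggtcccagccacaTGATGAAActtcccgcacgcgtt
Atf3: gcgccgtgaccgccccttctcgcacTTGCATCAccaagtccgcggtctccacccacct
Trib3 and Sesn2 had no match in this window, which says only that these letters are not in it.

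The cell cycle differed with the clusters. By the deposited phase calls 21.99, 24.1 and 35.5% of Spinal cord A cells were in G2 or M, against 43.1, 40.6 and 42.4% of NMPs C cells, and 36.9, 30.2 and 39.8% were in G1, against 19.7, 23.5 and 34.2%. Of 50 genes of G2 and M 12 were lower and 0 higher, with a median of -0.21, and 4, 9 and 29 were lower without whole replicate 1, whole replicate 2 and the posterior library. Cenpf, a kinetochore protein, had 159, 237 and 232 CPM in Spinal cord A, against 326, 338 and 285 CPM in NMPs C (-0.58 ± 0.09), and the proliferation marker Mki67 differed by -0.53 ± 0.10. The authors scored the cell cycle from a gene list, so the phase shares and these gene counts are not separate evidence. G1 cells are those with low S and G2/M scores, so a loss of the decreases among them was built in. Among G1 cells alone 8 of the 50 genes were higher and 0 lower, with a median of 0.065. There Cenpf was -0.19 (adjusted p = 0.29) and Mki67 -0.09 (adjusted p = 0.79). In G1 cells 13 of 15 tested tail bud genes were lower, and the differences were -3.58 for Wnt3a, -1.53 for Sp5, -1.73 for Rspo3 and -0.86 for Fgf8. Of 38 S phase genes 6 were higher, among them Rrm2 (0.32 ± 0.06) and Pcna (0.28 ± 0.06), but 0, 1 and 15 were without whole replicate 1, whole replicate 2 and the posterior library. Both cell cycle lists were drawn up after their values were seen. In the list of cell cycle drivers 3 of 24 were higher, including the cyclin gene Ccne1 (0.28 ± 0.07), and 3 lower, including the growth regulator Mycn (-0.63 ± 0.08), while Ccnd1 (0.06 ± 0.06) and Ccnd2 (-0.05 ± 0.06) did not pass.

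The glucose transporter gene Slc2a1 had 379, 507 and 643 CPM in Spinal cord A, against 297, 441 and 389 CPM in NMPs C (0.44 ± 0.08, adjusted p = 0.0012). With Gpi1, Gapdh and Tpi1 it made 4 of 26 glycolysis and hypoxia genes higher and 0 lower, and the count was 1, 1 and 13 without whole replicate 1, whole replicate 2 and the posterior library. Of 81 cytoplasmic ribosomal protein genes, a list chosen after its values were seen, 34 were higher and 0 lower, with a median of 0.19. Without whole replicate 1, whole replicate 2 and the posterior library 0, 1 and 79 of them were higher. Many of these genes have near-identical copies, so their single values are uncertain. In the list of insulin-like growth factor and imprinted growth genes Mest (0.66 ± 0.09), Plagl1 (0.72 ± 0.20) and Igfbp5 were higher and H19 (-0.82 ± 0.18), Igf2r (-0.57 ± 0.13, with adjusted p = 0.0975 without whole replicate 1) and Peg3 were lower, of 21 tested. Plagl1 had 73.7, 69.9 and 85.2 CPM in Spinal cord A, against 62.3, 77.2 and 26.5 CPM in NMPs C, and without the posterior library its difference was 0.07 (adjusted p = 0.73).

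The remaining lists had few calls. In the Hedgehog list Gas1, a co-receptor, was higher (0.45 ± 0.08), as 1 of 12. In the BMP and TGF-beta list 2 of 22 were higher, Fst and the BMP target Id3 (0.33 ± 0.06), and 0 lower. The epithelium and mesenchyme list had 1 of 24 higher (Cd24a, 0.27 ± 0.06, with adjusted p = 0.14 and 0.054 without whole replicate 1 and 2) and 2 lower (Cldn6 and Snai1). Cdh1, epithelial cadherin, had 1.60, 0 and 0.438 CPM in Spinal cord A, against 0.714, 1.13 and 0.886 CPM in NMPs C, from 0 to 21 UMIs a sum, and did not pass (-0.64 ± 0.54, adjusted p = 0.58). In the list of trunk to tail timing 3 of 16 were lower (Sall3, Sall1 and Mnx1, a leading gene of NMPs C), and 5 without the posterior library. Gdf11 (-0.13 ± 0.07) and Lin28a (-0.17 ± 0.07), known regulators of the end of trunk formation, did not pass. Lin28a did pass without the posterior library (-0.25, adjusted p = 0.0013), with no TMM factors (-0.26, adjusted p = 0.042) and with no filter on low counts (-0.19, adjusted p = 0.031). It did not pass without whole replicate 1 or 2. Outside the lists the largest decreases among genes over 20 CPM included Gnal, an olfactory-type G protein subunit (-2.28 ± 0.13), Amph (-2.11 ± 0.15), an endocytic adaptor, and Tpm1, tropomyosin 1 (-1.34 ± 0.10). The largest increases among genes over 20 CPM included Chchd10, a mitochondrial protein (0.61 ± 0.11), and Bok, a Bcl-2 family member (0.61 ± 0.11). They also included the tumour suppressor gene Rprm (0.78 ± 0.15), whose difference without the posterior library was 0.36 (adjusted p = 0.081).

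Markers of other cell types were examined because cells of a neighbouring type, or its free RNA, could contribute. The 20 presomitic and somitic genes summed to 362, 353 and 291 CPM in Spinal cord A, against 579, 459 and 887 CPM in NMPs C, and 2 of 13 tested were higher and 6 lower. The 2 higher ones, Tcf15 and Meox1, mark formed somites. Tcf15 had 82.9, 50.2 and 9.16 CPM in Spinal cord A, against 25.6, 25.1 and 10.9 CPM in NMPs C, and 850, 812 and 608 CPM in the Somite A cells of the same libraries. Meox1 had 43.2, 33.6 and 10.9 CPM in Spinal cord A, against 17.3, 19.5 and 11.3 CPM in NMPs C, and the part of somite RNA in these values was not tested. Without whole replicate 1 neither passed. Endoderm markers summed to 68.3, 73.3 and 71.6 CPM in Spinal cord A, against 54.9, 77.0 and 68.6 CPM in NMPs C, with 1 of 7 higher and 1 lower. The higher one, the hormone precursor gene Trh, had 5.12, 2.27 and 8.77 CPM in Spinal cord A, against 1.60, 3.77 and 1.27 CPM in NMPs C, and without the posterior library its difference was 0.70 (adjusted p = 0.29). Neural crest markers summed to 29.3, 25.6 and 19.6 CPM in Spinal cord A, against 46.2, 41.1 and 37.9 CPM in NMPs C, and only Sox9 of 4 tested passed (-1.08 ± 0.14). None of 6 pluripotent and germ cell, 2 endothelium and blood or 3 notochord and floor plate markers passed in edgeR or in DESeq2 without independent filtering, and 2, 1 and 0 of them had an unadjusted p under 0.05 in edgeR.

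The anterior part of the dissected pool held 21 Spinal cord A cells and 0 NMPs C cells among 3944, which is too few for a description of levels. These 21 cells had a median of 6622 UMIs and a median mitochondrial share of 5.87%. Adding them to the posterior part left 319 genes higher and 386 lower.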

How the data were processed

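UMI counts had been deposited as 1 table of 25595 genes by 26968 cells. According to the submitters' processing notes, the authors aligned reads to mm10 with Cell Ranger 6.0 and handled the cells in Seurat 4.0.2, and the study's methods name a modified Ensembl annotation and filters on total counts and mitochondrial share. The deposited annotation gave, per cell, the percent of mitochondrial UMIs, S and G2/M scores, phase, batch, chemistry and cluster, all by the authors. The authors scaled on the mitochondrial share and the cell cycle scores before clustering. The scores themselves were not used here. All counts were whole, and their totals matched the annotation in all 26968 cells. Per-sample columns left unused numbered 0. No doublet caller was run, since the study's upper UMI limit served that purpose, and a limit of 1.5 times the library mean was tried.

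UMI counts of Spinal cord A and of NMPs C were summed in each of 3 libraries, giving 6 sums, and fitted with edgeR 4.0.16 in R 4.3.3 (glmQLFit and glmQLFTest, TMM, filterByExpr, library as a block, 2 residual degrees of freedom). Adjustment of p-values followed Benjamini and Hochberg over 13449 genes. The library pairs the sums by design, and the deviations of its 2 sums correlated at r = 0.51, 0.55 and 0.71 over 13449 genes. The libraries were of batches 1, 4 and 2 and of chemistry V3, V3.1 and V3. Log2 differences within a library used a prior count of 2. Alternatives were no block, no TMM factors, DESeq2 1.42.0, no filter on low counts, each library left out, a stricter UMI limit, G1 cells only, cells thinned to 5000 UMIs, and both parts summed to 1 pool. DESeq2 without independent filtering and the interaction with the posterior part were chosen after seeing the data.

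The clusters, the genes and the 27 lists were chosen with earlier results of these data known, and the amino acid, S phase, G2 and M phase and ribosomal lists after their values were seen. Genes were named where they were among the 12 largest differences in either direction (called, at least 20 CPM in the higher cluster, the same direction in all libraries, not a leading gene), among the 4 largest called members of a list, or in a set of genes of known interest. Some called genes are counted but not reported by name here. Other genes named beside a count were chosen after their values were seen. Leading genes were ranked by the ratio of CPM with 1 CPM added, among genes with at least 20 CPM. They were given no p-value but stayed in the fit and in the list counts, so these counts are not independent of that ranking. Promoter sequences are from RefSeq (GRCm38.p6), which holds 250 bases before and 50 after each start, and only the 250 bases before were searched. Spinal cord A of the whole libraries had the lowest total counts and so the largest counting error, and the SE also holds the disagreement between libraries.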

Additional observations from a re-analysis of the deposited data

Results flagged for a closer look

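For 32 named genes the interaction term in edgeR passed, which sets the difference between Spinal cord A and NMPs C in the posterior part against that in the whole libraries. Values are the posterior difference minus the whole one on the log2 scale. The posterior part is 1 library, with no spread of its own, which was assumed to vary like the 2 whole ones. The term was fitted after the pattern had been seen in the same data, so the values are descriptions and no independent evidence, and the cause was not tested.

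More positive in the posterior part were the neural and neural-related genes Sox1 (1.01), Sox2 (0.641), Sox3 (0.889), Irx3 (1.99), Hes3 (1.09), Ncam1 (0.46), Meis1 (1.04), Meis2 (0.623), Nr2f2 (0.741) and Efnb1 (0.937). The same held for Rprm (0.932), Slc2a1 (0.448), Mest (0.372), Plagl1 (1.62) and Trh (2.07). It also held for the mitotic genes Cenpf (0.476), Cenpe (0.646), Mki67 (0.68), Top2a (0.527) and Kif11 (0.839), whose decreases in Spinal cord A were smaller in the posterior part.

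More negative in the posterior part were the tail bud and Wnt-related genes Sp5 (-0.639), Rspo3 (-0.8) and Fgf8 (-0.421), and the presomitic genes Tbx6 (-1.77), Dll1 (-1.1), Dll3 (-1.14) and Hes7 (-0.461). Dhrs3 (-1.98), Ets2 (-1.13), Fabp7 (-0.84), Tpm1 (-0.695) and the predicted gene Gm45889 (-0.603) were more negative as well.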

How the results depend on the processing

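With no replicate block 0 genes were called higher and 0 lower, and none of the 89 called named genes passed. Genes called higher numbered 86 with no normalization factors, 525 with no filter on low counts and 179 in G1 cells only. Genes called lower numbered 233 in G1 cells only, 198 after thinning, 45 with DESeq2, which gave no adjusted p for 11212 genes, and 116 with DESeq2 without independent filtering. Leaving out 1 library gave 176 to 934 genes called higher and 300 to 533 lower. Of the 323 genes called higher 122, 136 and 237 stayed called without whole replicate 1, whole replicate 2 and the posterior library, as did 262, 295 and 219 of the 378 called lower. Of the 89 named genes that were called, 55 kept their call with DESeq2 without independent filtering and 34 lost it. The losses numbered 12 with no normalization factors, 8 under the stricter UMI limit, 18 in G1 cells and 12 after thinning, and 13, 10 and 17 without whole replicate 1, whole replicate 2 and the posterior library. Named genes that had not been called also gained calls. These gains numbered 1 with no normalization factors, 2 with no filter, 1 in G1 cells and 1 after thinning. They numbered 1, 1 and 2 without whole replicate 1, whole replicate 2 and the posterior library. With DESeq2 without independent filtering 2 of 22 retinoic acid genes, 1 of 22 Notch genes and 1 of 13 presomitic and somitic genes passed, against 11, 7 and 8 in edgeR, and 61 ribosomal protein genes passed, against 34. Pax3 was -0.090 with no replicate block and -0.020 with no normalization factors. Cdh2 was -0.019, -0.069 and -0.047 with no replicate block, no normalization factors and G1 cells only. Ccnd1 was -0.025 with no normalization factors, and Gdf11 and Kif11 were 0.0013 and 0.16 in G1 cells. Nkx1-2 was 0.0037 under the UMI limit and 0.0084 after thinning. With 1 library left out the ranges were -0.055 to 0.25 for Pax3, -0.20 to 0.035 for Nkx1-2, -0.026 to 0.14 for Ccnd1, -0.29 to 0.44 for Sox1, -0.019 to 0.26 for Ncam1 and -0.028 to 0.11 for Cdh2. Depth limits Spinal cord A of the whole libraries most, where a gene at 1 CPM rests on about 3 UMIs.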
